A study of Mus musculus with 13 samples.

Results

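The 10 genes of 3 protein families described here, Foxk2 with its paralog Foxk1, Dcun1d4 with Dcun1d1, Dcun1d2 and Dcun1d5, and Cpne3 with Cpne1, Cpne2 and Cpne8, were measured in C2C12 cells after depletion of YBX3. They were found by symbol among the 55642 gene rows of the count table, all 10 were present, and all 10 were among the 16848 genes that passed the filter on low counts. Foxk2, Dcun1d4 and Cpne3 were chosen because they fell after YBX3 KD in these same libraries, so their values in that comparison are a description without a test. The 7 paralogs were chosen by family, and the question was whether they rose where their relative fell, or fell as well.

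C2C12 is a mouse skeletal muscle myoblast line, and YBX3 is a Y-box (cold shock domain) protein that binds RNA. Cells were transfected with siRNAs that target YBX3 (YBX3 KD) or with nontargeting ones (control KD) and were collected 48 h after transfection. At 0 day they were proliferating myoblasts in fetal bovine serum, and at 1 day they were differentiating myoblasts that had been moved to horse serum 24 h after transfection. The 13 libraries comprised 4 control KD (replicates A to D) and 4 YBX3 KD libraries (A to D) at 0 day, 2 control KD libraries (C and D) at 1 day and 3 YBX3 KD libraries (B to D) at 1 day. All cells were transfected, no untransfected library was included, and the titles call the replicates biological without saying how the cultures were separated.

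Library totals ran from 33451547 to 71811371 estimated counts. Ybx3, the targeted gene, was at 264.5 to 346.6 CPM (counts for each 1000000 of the scaled library total) in the 6 control KD libraries and at 28.7 to 71.5 CPM in the 7 YBX3 KD libraries, a mean of 14.5% of control KD. Of 6 myoblast markers, Chrna1 (224 to 386 CPM), Cdh15 (99.6 to 163 CPM) and Myf5 (31.3 to 73.5 CPM) were high in every library, whereas Myod1 was low (0.601 to 3.32 CPM). Adgre1 and Epcam, defining markers of macrophages and epithelial cells, had no count in any library, but other markers of these cells did in all 13, among them Cd68 (1.36 to 2.47 CPM), Csf1r (0.41 to 1.57 CPM), Krt8 (1.23 to 6.92 CPM) and Krt14 (4.43 to 29.8 CPM). The 4 libraries of replicate D stood apart from the others on both days (residuals of log2 CPM correlated at 0.409 to 0.73 among them), so fold changes are also given without them.

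FOXK1 and FOXK2 are forkhead transcription factors with a forkhead-associated domain, known for recruiting SIN3 and BAP1 complexes to chromatin, for repressing autophagy genes in muscle cells and for raising glycolytic genes. The DCUN1D proteins (DCN1-like) help the E2 enzyme UBE2M to attach NEDD8 to cullins, the scaffolds of cullin-RING ubiquitin ligases. Copines are cytosolic proteins with tandem C2 domains and an A domain that bind phospholipid membranes when calcium rises, and CPNE3 is known as a partner of ERBB2.

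The sequences shown first are those of the YBX3 siRNAs and of the sites that their seeds match in the 3′ UTRs of the members, because Foxk2, Dcun1d4 and Cpne3 share this feature and the rule that chose them did not use it. The study lists 4 siRNAs to mouse YBX3, and its text does not say whether the RNAseq libraries received them as a pool or singly. Their antisense strands, read from the study's list, run 5′ to 3′ with the seed (bases 2 to 8) in capitals.
YBX3 siRNA 05: uAUAGUUGuagggacgucg
YBX3 siRNA 06: aUAGUAGCcgcgucuguac
YBX3 siRNA 07: uCCAUAUCcauuucugacg
YBX3 siRNA 08: aUACUUGCguggguuguuu

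The 7-base complement of the siRNA 08 seed, GCAAGTA, was found in the canonical 3′ UTRs of Foxk2, Dcun1d4 and Cpne3, at 1 site each. Of the 7 paralogs, Dcun1d5 had it (2 sites), and Foxk1, Dcun1d1, Dcun1d2, Cpne1, Cpne2 and Cpne8 did not. Each site is shown as the 19 bases that face the siRNA, on the strand of the mRNA, with the seed match in capitals.
Foxk2: tatgtcacataGCAAGTAa
Dcun1d4: tgtccccgtaaGCAAGTAt
Cpne3: aatcaatcattGCAAGTAa
Dcun1d5, first site: ttgttttgcctGCAAGTAt
Dcun1d5, second site: agctttcaggaGCAAGTAt

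In GRCm39 with GENCODE vM39, the Foxk2 site is at chr11:121199036-121199054 (plus strand), the Dcun1d4 site at chr5:73715455-73715473 (plus strand) and the Cpne3 site at chr4:19521377-19521395 (minus strand). The Dcun1d5 sites are at chr9:7208603-7208621 and chr9:7210192-7210210 (plus strand). The pairing was partial. Counted with the 7 bases of the seed match, 9 of 19 bases paired at the Foxk2 site, 11 at the Dcun1d4 site, 13 at the Cpne3 site, and 9 and 10 at the Dcun1d5 sites. An A follows the seed match in Foxk2 and Cpne3. Rules for miRNA targets count that as an 8-base site whatever the base 1 of the guide, and it does not pair with the A at base 1 of siRNA 08. A T follows it in Dcun1d4 and at both Dcun1d5 sites and pairs with that base.

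The match was uncommon among all genes: 880 of 12850 tested genes with a canonical 3′ UTR held it (6.8%), and 14.4% of those whose 3′ UTR had at least 2000 bases. Of the 17 genes called lower in YBX3 KD besides Ybx3, a set that holds Foxk2, Dcun1d4 and Cpne3 and was also chosen on its fall, 13 held it. The 3′ UTRs of Foxk2, Dcun1d4, Cpne3 and Dcun1d5 had 3266, 3107, 3930 and 4547 bases. The seed of siRNA 06 matched Foxk1 (1 site) and Dcun1d5 (2 sites), that of siRNA 07 matched Dcun1d1 (1 site), and that of siRNA 05 matched no member. In all, 6 of the 10 members held a match to at least 1 of the 4 seeds, against 20.4% of genes and 40.7% of those with a 3′ UTR of at least 2000 bases. These 6 are the members with 3′ UTRs of that length, and 3 of them were chosen on their fall. Seeds of the 4 nontargeting siRNAs matched 6 of the 10 members, 54.7% of genes and 86.7% of those with the longer 3′ UTRs. Whether any of these matches took part in a change was not tested.

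Foxk2 fell to 51.5% of its control KD mean. In control KD it was at 198, 176, 203 and 166 CPM in replicates A to D at 0 day and at 179.9 and 171 CPM in C and D at 1 day. YBX3 KD left it at 98.8, 89.5, 92.8 and 96.0 CPM in A to D at 0 day and at 96.5, 101.3 and 82.4 CPM in B to D at 1 day. The groups did not overlap, and Foxk2 was lower in 6 of 6 pairs of libraries with the same letter and day. Over both days this is a log2 fold change of −0.95, with −0.98 at 0 day and −0.91 at 1 day. Foxk2 (ENSMUSG00000039275) lies at chr11:121150786-121201060 on the plus strand. In this bulk RNA, less Foxk2 RNA in each cell and fewer cells that carry it cannot be told apart.

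Dcun1d4 fell to 54.2% of its control KD mean. Its control KD values were 33.9, 30.5, 31.3 and 29.9 CPM in replicates A to D at 0 day and 31.9 and 28.6 CPM in C and D at 1 day. After YBX3 KD they were 17.1, 16.0, 17.1 and 15.9 CPM in A to D at 0 day and 17.8, 17.0 and 16.6 CPM in B to D at 1 day. No YBX3 KD library reached a control KD library, and all 6 pairs were lower. The spread within YBX3 KD was small (SD 0.678 CPM, n = 7). The gene (ENSMUSG00000051674) lies at chr5:73638343-73718196 on the plus strand. On the log2 scale the change was −0.89 over both days (−0.93 at 0 day, −0.82 at 1 day).

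Cpne3 fell to 59.8% of its control KD mean. It was at 127, 122, 120.3 and 137 CPM in control KD replicates A to D at 0 day and at 127 and 126 CPM in C and D at 1 day. YBX3 KD brought it to 74.1, 71.9, 75.0 and 70.3 CPM in A to D at 0 day and at 70.4, 87.99 and 80.6 CPM in B to D at 1 day. Again the groups were apart in every library, with replicate C at 1 day the highest of YBX3 KD. The gene (ENSMUSG00000028228) lies at chr4:19519249-19570122 on the minus strand. Its log2 fold changes were −0.75 over both days, −0.80 within 0 day and −0.67 within 1 day.

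With the thresholds that the study used (absolute fold change above 1.3, adjusted p under 0.001), 3 of the 10 members were called, Foxk2, Dcun1d4 and Cpne3, against 19 of 16848 genes (0.113%). All YBX3 KD libraries lay below all control KD libraries for the same 3 members and for 182 of 16848 genes (1.08%), and above them for no member and 0.95% of genes. These 3 are the genes that the rule picked on this contrast, so nothing is read from the counts. By signed log2 fold change, the member nearest to them on the outside was Dcun1d5, at −0.12, and the nearest on the inside was Cpne3 at −0.75. By edgeR adjusted p the nearest on the outside was Foxk1 (0.302, at a log2 fold change of 0.18). Without the replicate D libraries the log2 fold changes were −0.99 for Foxk2, −0.92 for Dcun1d4 and −0.73 for Cpne3.

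**Figure D1:**
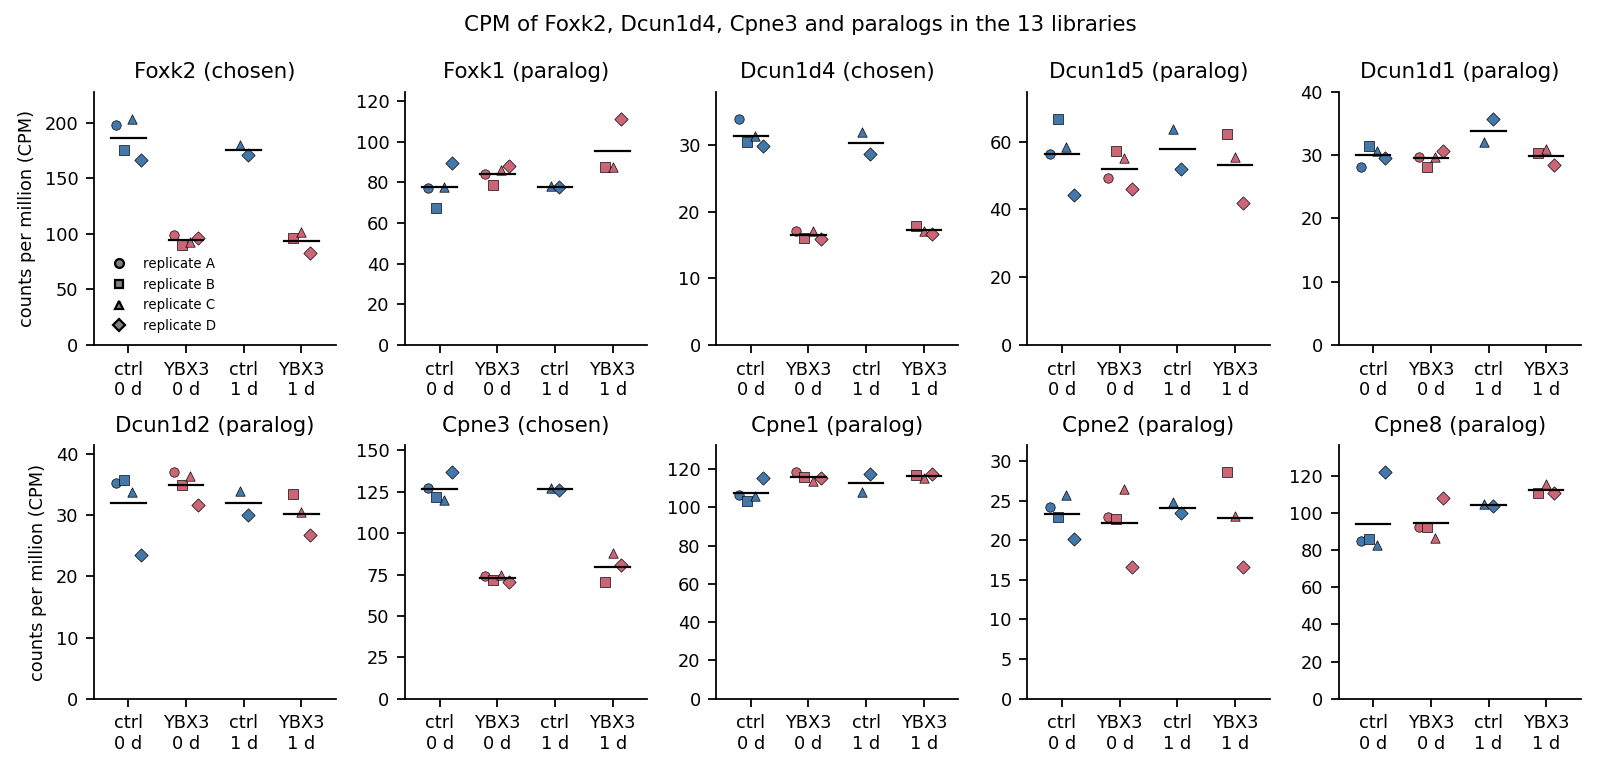
CPM of the 10 members in the 13 libraries, by group (ctrl, control KD; YBX3, YBX3 KD; 0 d and 1 d, days), with a marker for each replicate letter and a line at the group mean. Foxk2, Dcun1d4 and Cpne3 are lower in all 7 YBX3 KD libraries than in all 6 control KD libraries, and the groups overlap for the 7 paralogs.

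None of the 7 paralogs passed the thresholds of the study or an adjusted p of 0.05 in YBX3 KD against control KD over both days (edgeR quasi-likelihood test, Benjamini-Hochberg adjustment over all genes). Past 0.05 were 394 of the 16848 genes (2.34%), and with the replicate letter as a block 1647 genes were past 0.05 but again no paralog. At an unadjusted p under 0.05, 1 of the 7 paralogs (Foxk1) was counted, against 15.6% of all genes. Of the paralogs, 4 had a log2 fold change above 0 and 3 below, from −0.12 to 0.18, with a median of 0.05 beside 0.00 for all genes. The groups overlapped for all 7. Without the replicate D libraries the 7 lay between −0.15 and 0.16, and again none passed an adjusted p of 0.05, against 2155 of 17271 genes (12.5%). Counts of higher or lower pairs are given below for single genes. The share of all genes with such counts is not given here, so nothing is read from them.

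Foxk1 is the nearest relative of Foxk2, with 60.0% identical residues over 613 aligned ones (719 and 651 residues in the canonical proteins). It had 77.1, 67.5, 77.7 and 89.3 CPM in control KD replicates A to D at 0 day and 78.1 and 77.7 CPM in C and D at 1 day. After YBX3 KD it had 84.3, 78.6, 85.9 and 88.2 CPM in A to D at 0 day and 87.5, 87.6 and 111 CPM in B to D at 1 day. Foxk1 was higher in 5 of 6 pairs, and only replicate D at 1 day lay above every control KD library.

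The log2 fold change of Foxk1 over both days was 0.18 ± 0.08 (SE), with a 95% interval of 0.005 to 0.36 and an adjusted p of 0.302 in edgeR. The upper end of the interval is a 1.28-fold rise. Other tools put Foxk1 past 0.05: limma-voom with sample quality weights gave 0.17 with an adjusted p of 0.0291, and DESeq2 with the replicate block gave 0.20 with an adjusted p of 0.0357. These settings put 18.3% and 17.5% of all genes past 0.05. DESeq2 without the block gave an adjusted p of 0.246, edgeR with the block 0.07 and edgeR without the libraries of replicate D 0.088. Within 0 day Foxk1 had a log2 fold change of 0.11 and within 1 day one of 0.29, with adjusted p of 0.79 and 0.633.

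Per kb of transcript, Foxk2 was the more abundant of the pair in control KD, at 33.8 ± 2.80 CPM per kb (SD, n = 6) against 10.5 ± 0.927 for Foxk1. After YBX3 KD the levels were 17.4 ± 1.18 CPM per kb for Foxk2 and 11.95 ± 1.38 for Foxk1 (n = 7), with ranges that met nowhere (15.3 to 18.8 and 10.5 to 14.9). The share of Foxk1 in the pair went from 23.7% to 40.7%, and the sum of the pair in YBX3 KD was 66.4% of that in control KD (27.2 to 30.6 against 41.6 to 48.1 CPM per kb). Shares and sums of the 3 families include the gene chosen for its fall, so their drop is a description. In replicate D at 1 day, where Foxk1 was highest and Foxk2 lowest, the Foxk1 share reached 49.4%.

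Among the DCUN1D proteins, Dcun1d5 is the closest to Dcun1d4 (70.1% identical residues), and Dcun1d1, Dcun1d2 and Dcun1d3 share 76 of 253, 82 of 252 and 88 of 275 aligned residues with it. Dcun1d5 had 56.3, 66.7, 58.3 and 44.3 CPM in control KD replicates A to D at 0 day and 63.6 and 52.0 CPM in C and D at 1 day. The YBX3 KD libraries had 49.2, 57.3, 55.3 and 46.0 CPM in A to D at 0 day and 62.3, 55.4 and 42.0 CPM in B to D at 1 day. The libraries of replicate D were the lowest of each group, and 5 of 6 pairs were lower after YBX3 KD.

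The log2 fold change of Dcun1d5, the paralog with seed matches to siRNA 08, was −0.12 ± 0.11 (95% interval −0.36 to 0.13, edgeR adjusted p = 0.662). With the replicate block the estimate was −0.15 with an adjusted p of 0.0783. DESeq2 with the block put it past 0.05 (−0.16, adjusted p = 0.0222), the only setting that did, with 17.5% of all genes past 0.05. Without the replicate D libraries the estimate was −0.15 with an edgeR adjusted p of 0.211.

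Dcun1d1 (SCCRO), the founding member of the mammalian family, ranged from 28.2 to 35.7 CPM with a median of 31.0 in control KD and from 28.1 to 31.0 CPM with a median of 29.8 in YBX3 KD. The highest values, 32.0 and 35.7 CPM, were the control KD libraries at 1 day, and the other libraries of both groups overlapped. Its log2 fold change was −0.08 (95% interval −0.20 to 0.04, edgeR adjusted p = 0.553). It shares 79.5% of residues with Dcun1d2.

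Dcun1d2 was at 35.3, 35.8, 33.8 and 23.5 CPM in control KD replicates A to D at 0 day and at 34.0 and 30.02 CPM in C and D at 1 day. After YBX3 KD it was at 37.0, 35.0, 36.5 and 31.7 CPM in A to D at 0 day and at 33.5, 30.6 and 26.8 CPM in B to D at 1 day. Of the pairs, 3 were higher and 3 lower, and its log2 fold change of 0.05 (95% interval −0.17 to 0.27, edgeR adjusted p = 0.861) rested on the low control KD replicate D at 0 day, without which it was −0.03.

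Dcun1d3, the membrane-bound member of the family, is not among the 10 but was measured as well. It ranged over 14.3 to 17.9 CPM in the control KD libraries and over 17.1 to 20.2 CPM after YBX3 KD, and it was higher in 6 of 6 pairs although the groups overlapped. Its log2 fold change was 0.20 ± 0.07 (95% interval 0.04 to 0.35) with an edgeR adjusted p of 0.188. limma-voom and DESeq2 with the replicate block put it past 0.05 (adjusted p of 0.045 and 0.0334), with the same 18.3% and 17.5% of all genes, and edgeR with the block did not (0.0673).

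Per kb, the order in control KD was Dcun1d2 (10.5 ± 1.54 CPM per kb, SD, n = 6), Dcun1d5 (10.3 ± 1.46), Dcun1d4 (7.52 ± 0.445), Dcun1d1 (6.28 ± 0.517) and Dcun1d3 (2.70 ± 0.26). The ranges of Dcun1d2 and Dcun1d5 overlapped, and so did those of Dcun1d4 and Dcun1d1. After YBX3 KD Dcun1d4, at 4.07 ± 0.165 CPM per kb (n = 7), stood below every Dcun1d1 value (5.65 to 6.23) and above every Dcun1d3 value (2.85 to 3.36). Its share of the family went from 20.3% to 12.2%, and the family sum in YBX3 KD was 89.7% of that in control KD, with ranges that overlapped (29.0 to 35.9 against 31.6 to 40.5 CPM per kb).

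Of the copines, Cpne1 is the closest to Cpne3 (67.5% identical residues), followed by Cpne2 (60.2%). The Cpne2 value comes from a short canonical model of 480 residues, of which 462 aligned with the 533 of Cpne3. Cpne8 shares 54.0%, below Cpne7, Cpne4 and Cpne5 (54.7% to 55.6%). Cpne1 was at 106, 103, 106 and 115 CPM in control KD replicates A to D at 0 day and at 108 and 117 CPM in C and D at 1 day. After YBX3 KD it was at 118, 116, 114 and 115 CPM in A to D at 0 day and at 117, 115 and 118 CPM in B to D at 1 day. Cpne1 was higher in 5 of 6 pairs, and the control KD libraries of replicate D reached the level of YBX3 KD.

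The log2 fold change of Cpne1 was 0.09 ± 0.05 (95% interval −0.01 to 0.18, edgeR adjusted p = 0.404), and the upper end is a 1.14-fold rise. limma-voom put it past 0.05 (0.13, adjusted p = 0.0204), with 18.3% of all genes. Without the libraries of replicate D it was 0.13 with an edgeR adjusted p of 0.055. Cpne1 overlaps Rbm12 and the readthrough model Gm28036 on the same strand, so the estimated counts of these genes can be split between them. Rbm12 went from 42.6 ± 2.61 to 37.4 ± 2.76 CPM and Gm28036 from 38.4 ± 3.97 to 34.8 ± 2.76 CPM (SD, n = 6 and 7).

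Cpne2 ranged from 20.2 to 25.7 CPM with a median of 23.8 in control KD and from 16.6 to 28.6 CPM with a median of 22.9 in YBX3 KD. The YBX3 KD libraries spread on both sides of control KD: replicate D gave 16.6 CPM on each day and replicate B at 1 day gave 28.6 CPM. Its log2 fold change was −0.08 (95% interval −0.36 to 0.20, edgeR adjusted p = 0.817), and 0.00 without the replicate D libraries.

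Cpne8 had 85.0, 85.8, 82.8 and 122 CPM in control KD replicates A to D at 0 day and 105 and 103.5 CPM in C and D at 1 day. After YBX3 KD it had 92.2, 92.2, 86.6 and 108 CPM in A to D at 0 day and 110.4, 115 and 110.5 CPM in B to D at 1 day. It was higher in 5 of 6 pairs and lower in replicate D at 0 day. Over both days its log2 fold change was 0.05 (95% interval −0.15 to 0.25, edgeR adjusted p = 0.845). Without the replicate D libraries it was 0.10 (0.01 to 0.19, adjusted p = 0.155), and limma-voom gave 0.11 (0.01 to 0.22, adjusted p = 0.129).

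The other copines were near the limit of detection. Cpne5 lay at 0.0261 to 0.162 CPM in the control KD libraries and at 0.0893 to 0.242 CPM after YBX3 KD (log2 fold change 0.79, 95% interval −0.01 to 1.59, edgeR adjusted p = 0.331). Cpne4, Cpne6, Cpne7 and Cpne9 had at most 0.179 CPM in any library and did not pass the filter on low counts.

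Per kb, the order in control KD was Cpne1 (31.8 ± 1.64 CPM per kb, SD, n = 6), Cpne8 (28.4 ± 4.50), Cpne3 (22.4 ± 1.02) and Cpne2 (11.6 ± 0.939), and the ranges of Cpne1 and Cpne8 overlapped. After YBX3 KD Cpne3 was at 13.4 ± 1.14 CPM per kb (n = 7), within the range of Cpne2 (8.15 to 14.03). The share of Cpne3 in the family went from 23.8% to 15.2%, and the family sum in YBX3 KD was 93.5% of that in control KD, again with overlapping ranges (84.5 to 94.2 against 87.9 to 103.2 CPM per kb). The canonical transcript of Cpne2 is a short model of 2036 bases, and with the longest coding one (2705 bases) its control KD level was 8.71 CPM per kb. With the longest coding transcripts Cpne3 stayed above Cpne2 in every YBX3 KD library (11.75 to 14.7 against 6.13 to 10.6 CPM per kb), so their overlap rests on the transcript model.

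**Figure D2:**
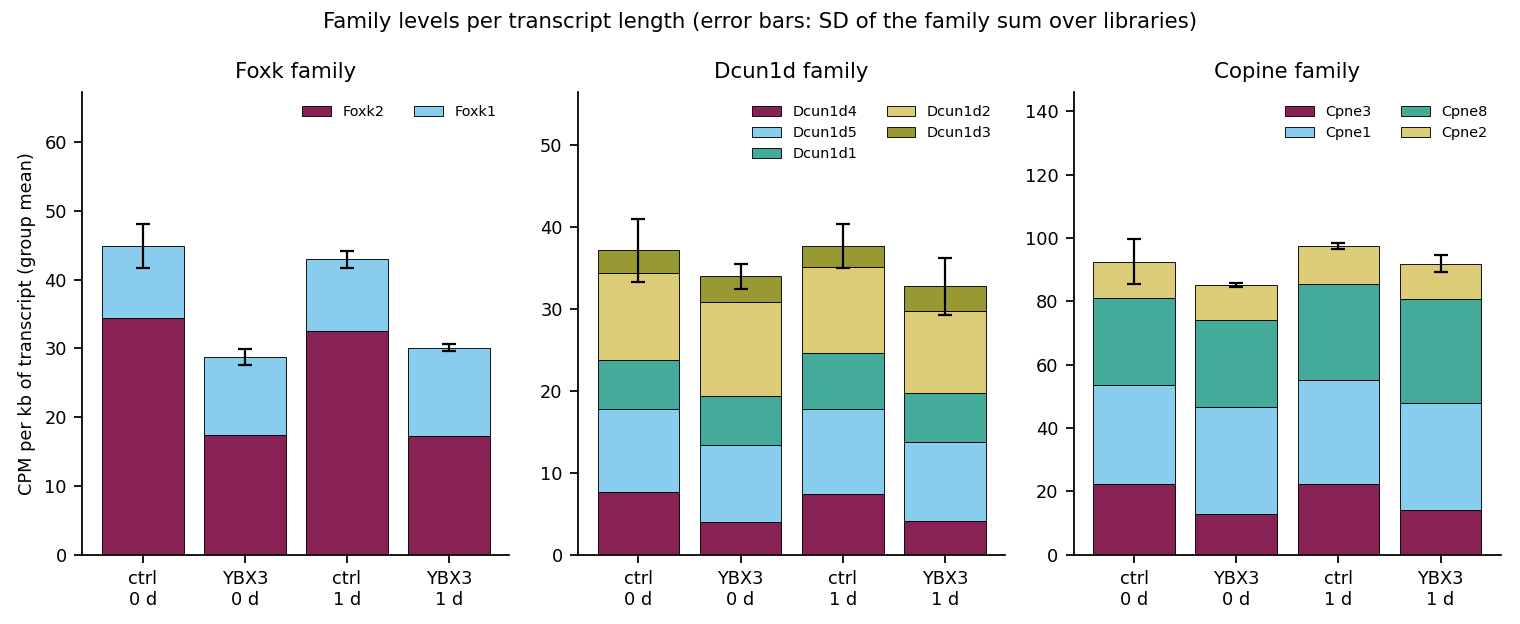
Mean CPM per kb of canonical transcript of each family gene, stacked by group (ctrl, control KD; YBX3, YBX3 KD), with error bars for the SD of the family sum over libraries (4, 4, 2 and 3 libraries). Over both days the YBX3 KD sum was 66.4% of control KD for the Foxk pair, 89.7% for the Dcun1d family and 93.5% for the copines, and the library ranges overlap for the latter 2 families.

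The comparison was repeated within each day. At 0 day the paralogs had log2 fold changes of −0.12 to 0.13 and none passed an adjusted p of 0.05 in edgeR, against 72 of 16848 genes (0.427%). None had an unadjusted p under 0.05 at 0 day, where 11% of genes did. At 1 day they had log2 fold changes of −0.18 to 0.29 and none passed 0.05, against 12 genes (0.0712%), and at an unadjusted p under 0.05 Foxk1 alone was counted, against 7.79% of genes. limma-voom put Cpne1 past 0.05 at 0 day (adjusted p = 0.0453), and DESeq2 with the replicate block put Foxk1 past it at 1 day (adjusted p = 0.0121). Over both days these settings put 18.3% and 17.5% of all genes past 0.05. Their shares within a day are not given here, so nothing is read from these calls.

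**Figure D3:**
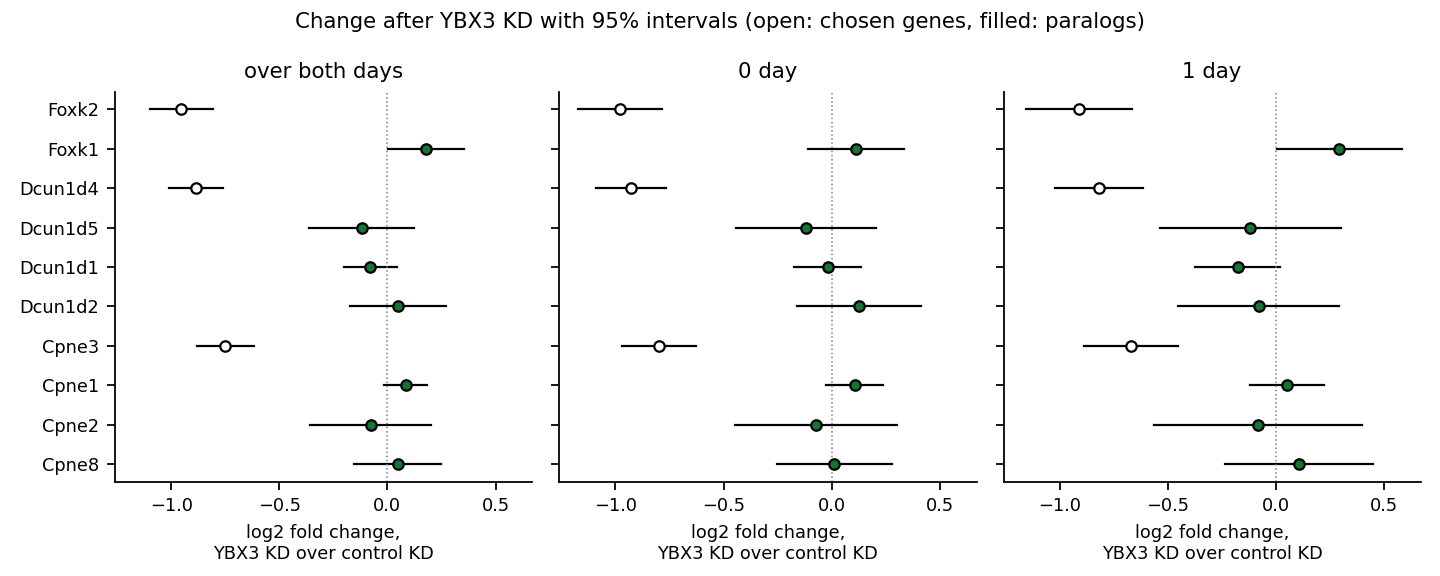
Log2 fold change of YBX3 KD over control KD for the 10 members with 95% intervals from edgeR, over both days and on each day. The open points of Foxk2, Dcun1d4 and Cpne3, chosen on this contrast, lie between −0.98 and −0.67, and the filled points of the paralogs lie between −0.18 and 0.29.

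The size of the fall did not differ between the days beyond its error. The YBX3 KD effect at 1 day minus that at 0 day was 0.07 (95% interval −0.24 to 0.38) for Foxk2, 0.11 (−0.15 to 0.37) for Dcun1d4 and 0.13 (−0.15 to 0.40) for Cpne3 on the log2 scale. No member passed an adjusted p of 0.05 in this contrast by edgeR, where no gene did (0%), and none had an unadjusted p under 0.05, against 2.64% of genes. DESeq2 and limma-voom put no member past 0.05 either, but their shares of all genes in this contrast are not given here, so nothing is read from that.

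The step from 0 day to 1 day was tested within each group of siRNAs. From 0 day to 1 day the log2 differences of the 10 members lay between −0.08 and 0.18 in control KD and between −0.21 and 0.24 in YBX3 KD. None of the 10 passed an adjusted p of 0.05 in either step by edgeR (smallest adjusted p of 1 and 0.988), DESeq2 or limma-voom, and no gene did by edgeR (0%). None had an unadjusted p under 0.05, against 1.44% of genes in control KD and 4.28% in YBX3 KD. Shares of all genes by DESeq2 and limma-voom are not given here for these steps, so nothing is read from their result.

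Genes that work with these families were counted in the same contrast. Of 18 tested partners of FOXK proteins (BAP1, SIN3 and Dishevelled components), none passed an edgeR adjusted p of 0.05 in YBX3 KD against control KD, beside 2.34% of all genes, and 1 had an unadjusted p under 0.05, beside 15.6%. Their log2 fold changes were below 0 for 12 and above 0 for 6 (8402 and 8446 of all 16848 genes), with a median of −0.06 beside 0.00 for all genes. Sap30, a SIN3 complex subunit, had the smallest p of the list, with means of 20.1 ± 2.32 and 17.1 ± 1.84 CPM in control KD and YBX3 KD (SD, n = 6 and 7, as for the means that follow) (log2 fold change −0.25, edgeR adjusted p = 0.102). Mbd6, which binds the BAP1 complex, followed (0.18, adjusted p = 0.435). Of 26 tested forkhead genes, 1 passed 0.05, Foxk2, which was chosen on its fall in this contrast, so nothing is read from that count.

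Of 15 glycolytic and pyruvate dehydrogenase kinase genes, 1 fell past an adjusted p of 0.05, 8 had an unadjusted p under 0.05 (6 lower and 2 higher), 12 had a log2 fold change below 0 and the median was −0.14, beside 2.34% past 0.05, 15.6% at an unadjusted p under 0.05, 8402 of 16848 below 0 and a median of 0.00 over all genes. Pdk3, a kinase that inhibits pyruvate dehydrogenase, went from 45.5 ± 3.68 to 36.2 ± 2.40 CPM (log2 fold change −0.34, 95% interval −0.47 to −0.21, edgeR adjusted p = 0.0114), and its groups did not overlap. Of 16 autophagy genes none passed 0.05, 2 had an unadjusted p under 0.05, against the same 15.6%, and the median was 0.04. Atg16l1, part of the LC3 conjugation machinery, had 33.2 ± 3.49 and 40.1 ± 3.56 CPM (0.28, adjusted p = 0.0744), and the ubiquitin-like Atg12 had 36.4 ± 2.56 and 41.5 ± 3.57 CPM (0.18, adjusted p = 0.219).

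Of 25 genes of neddylation (NEDD8, its enzymes, cullins and the COP9 signalosome that removes NEDD8), none passed 0.05, 3 had an unadjusted p under 0.05, 17 had a log2 fold change below 0 and the median was −0.06, again beside 2.34% past 0.05, 15.6% at an unadjusted p under 0.05 and 8402 of 16848 below 0 over all genes. Ube2m, the E2 enzyme that DCUN1D proteins bind, went from 154.5 ± 13.2 to 135 ± 8.88 CPM (−0.20, edgeR adjusted p = 0.16). Cops3, a signalosome subunit, had 95.1 ± 11.3 and 75.1 ± 8.98 CPM (−0.34, adjusted p = 0.108). Of 5 partners of copines none passed 0.05 or an unadjusted p of 0.05, with Rack1, a ribosome-associated scaffold, at −0.17 (adjusted p = 0.36) and Ppp5c, a protein phosphatase, at −0.14 (adjusted p = 0.549).

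Among the myoblast markers Chrna1, an acetylcholine receptor subunit, rose from 263 ± 33.6 to 332 ± 48.6 CPM (log2 fold change 0.37, edgeR adjusted p = 0.0449), and all 6 markers had a log2 fold change above 0, beside 2.34% of all genes past 0.05 and 8446 of 16848 above 0. The summed level of the 6 at 0 day was 526 to 588 CPM in the control KD libraries and 635 to 712 CPM after YBX3 KD, and 499 to 528 and 523 to 661 CPM at 1 day. The 5 macrophage markers at 0 day summed to 1.84 to 3.31 CPM in the control KD libraries and 2.62 to 3.92 CPM after YBX3 KD, with 2.51 to 2.91 and 2.01 to 3.56 CPM at 1 day. The 4 endothelial markers summed to at most 1.74 CPM in any library, and among them Tek passed 0.05 from a very low level (0.0715 to 0.237 CPM, adjusted p = 0.0375). The 5 epithelial markers, mostly Krt14 by median level, summed to 7.26 to 27.8 CPM in control KD and 5.83 to 33.7 CPM in YBX3 KD. The part of these markers in the results on the members was not tested.

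The genes most like the 3 that fell were found by Pearson correlation of log2 CPM over the 13 libraries, a description in which the drop between the groups carries most of the likeness. For Foxk2 they were Ybx3 itself (0.988), Dcun1d4 (0.985) and Purb (0.985), which encodes a single-stranded nucleic acid binding protein. For Dcun1d4 they were Purb (0.988), Foxk2 (0.985) and Ybx3 (0.981). For Cpne3 they were Aph1b (0.979), a gamma-secretase subunit, Anxa1 (0.974), an annexin, and Hipk3 (0.968), a kinase.

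Around the group means the picture was another one. After the group means were removed, Foxk2 and Dcun1d4 had a correlation of 0.585, whereas Cpne3 had −0.158 with Foxk2 and −0.144 with Dcun1d4. Dcun1d5 had 0.851 with Dcun1d2 and −0.89 with Foxk1, and Dcun1d2 had −0.851 with Cpne8. The libraries of replicate D, the lowest of their groups in Dcun1d5 and Dcun1d2 and, apart from control KD at 1 day, the highest in Foxk1, share in these values, which rest on 13 libraries with shared letters and carry no test.

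The seed match of siRNA 08 was set beside the fold changes of all genes. The median log2 fold change was −0.057 in the 880 genes with a match and 0.001 in the others, and −0.094 in the 228 genes where an A follows the match. The median of genes with a match was 0.013 for siRNA 05, −0.026 for siRNA 06 and 0.008 for siRNA 07. For the nontargeting siRNAs it was 0.074 for #1 (84 genes, beside −0.004 without a match), 0.007 for #2, 0.011 for #3 and 0.009 for #4. Among these seeds the median of matched genes was lowest for siRNA 08 and highest for nontargeting #1, a siRNA listed for control KD. The 3 members that fell lay far below the median of genes matched by siRNA 08 and Dcun1d5, with 2 matches, lay near it. Because Foxk2, Dcun1d4 and Cpne3 were chosen on their fall, these values describe them and test nothing, and an effect of a seed and an effect of less YBX3 cannot be told apart here.

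**Figure D4:**
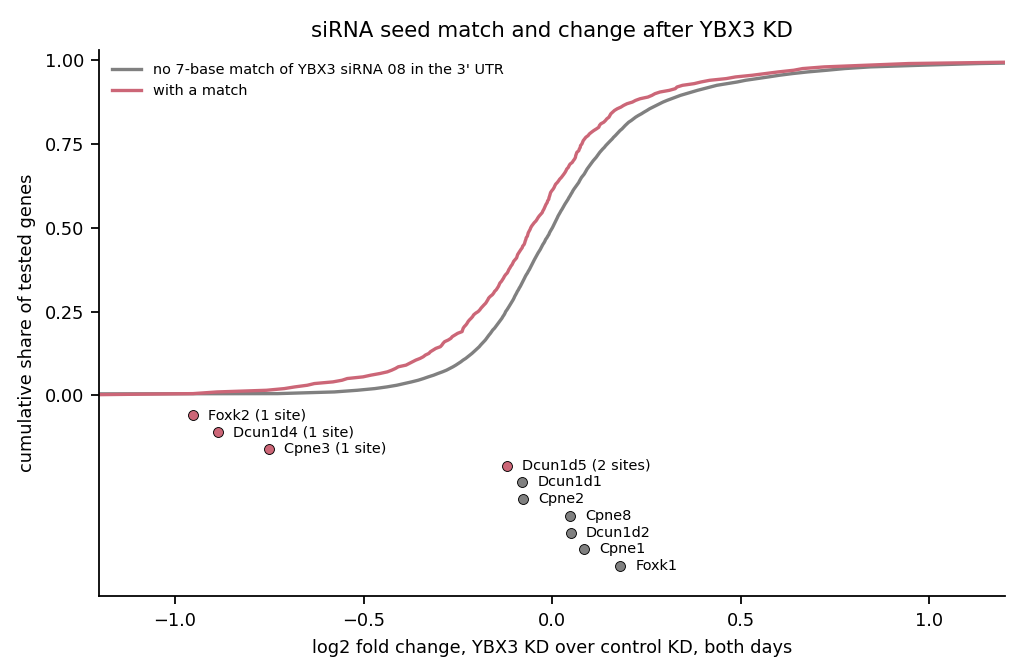
Cumulative share of tested genes against the log2 fold change of YBX3 KD over control KD, for genes with (red) and without (grey) a 7-base match to the siRNA 08 seed in the canonical 3′ UTR; a few genes lie beyond the axis. Points below show the 10 members in the same colours: the matched genes have a median of −0.057, Foxk2, Dcun1d4 and Cpne3 lie at −0.95, −0.89 and −0.75, and Dcun1d5 with 2 sites lies at −0.12.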

How the data were processed

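RNAseq of 13 C2C12 libraries was analysed. The authors mapped the reads with Salmon (version not given in the sources used here) to GRCm39 (Gencode M30, canonical list). What they deposited is a table of estimated counts in whole numbers, 1 row for each gene, without normalization. Genes were kept by filterByExpr (16848 of 55642), scaled by TMM and compared with edgeR 4.0.16 (quasi-likelihood test, Benjamini-Hochberg adjustment) in R 4.3.3. The main contrast, YBX3 KD against control KD, was fitted across both days with a day term, and other contrasts came from a fit with 1 coefficient for each group. The study's thresholds were a fold change above 1.3 and an adjusted p under 0.001. The authors used DESeq2. CPM are TMM-scaled, and log2 CPM used a prior count of 2. Levels per kb divide CPM by the length of the canonical transcript.

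Symbols, positions and 3′ UTRs came from GENCODE vM39 (GRCm39), which held 54969 of the 55642 identifiers. siRNA sequences came from the study's list, whose antisense strand of siRNA 07 is not the complement of the listed sense strand but does pair with Ybx3. Residue identity was computed from translated canonical coding sequences by global alignment (Biopython 1.88). All columns of the count table matched a library (0 did not).

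Replicate letters were taken to pair the samples. Residual log2 CPM correlated above 0.1 in all 16 same-letter pairs from different groups (median 0.338). The same held for 11 of 46 other pairs and 8 of 16 pairs with the same title number. Pairs within replicate D were the highest of the same-letter pairs (0.409 to 0.73), and pairs of other letters reached 0.419. With 2 control KD libraries at 1 day, their residuals mirror each other. No libraries of a group agreed within sampling noise. In simulated counts, 83.5% of genes given a log2 change of 1 and 30% of those given 0.5 passed an adjusted p of 0.05 in the comparison over both days (16848 genes, 200 changed). The simulated libraries were independent of each other, and the changed genes were drawn without regard to the levels of the members. These shares are therefore not the chance of finding a change in a paralog.

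The members and lists were chosen with earlier results of these data known. Named were the members, Ybx3, the other family genes, from each list the genes past an adjusted p of 0.05 over both days or else those with the smallest p, and the 3 genes most correlated with each gene that fell. Alternatives were DESeq2 1.42.0, limma-voom 3.58.1 with sample quality weights, other size factors and filters, replicate blocks, no day term, the libraries of 1 day, and leaving out each library. Added after seeing the data were DESeq2 with the replicate block, leaving out replicate D, and the longest coding transcript. Intervals are 95% and p-values measure the spread between these libraries. Protein sequences were not used here beyond identity.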

Additional observations from a re-analysis of the deposited data

Results flagged for a closer look

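In the 20 combinations of a member with a 0 day group of 4 libraries, an outlying library was looked for by Dixon's criterion at 95%, which chance passes in about 1 in 20 groups. Both that passed were control KD replicate D at 0 day. Dcun1d2 was at 23.5 CPM there and at 33.8 to 35.8 CPM in the other 3 libraries (gap over range 0.832). Cpne8 was at 122 CPM there and at 82.8 to 85.8 CPM in the other 3 (gap over range 0.925). The control KD and YBX3 KD libraries of replicate D also shared a low Dcun1d5 and Cpne2. No member had all of its 0 day pairs moving one way and all of its 1 day pairs the other way.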

How the results depend on the processing

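Foxk2, Dcun1d4 and Cpne3 kept their direction over both days and on each day under every alternative run, with log2 fold changes over both days of −0.99 to −0.92, −0.92 to −0.86 and −0.78 to −0.72. No paralog passed the thresholds of the study under any of 23 alternatives. At an adjusted p of 0.05 the number of paralogs was 0 except for 2 under limma-voom (Foxk1, Cpne1; 18.3% of all genes) and 2 under DESeq2 with the replicate block (Foxk1, Dcun1d5; 17.5%). The number of genes past the thresholds of the study, 19, was 188 by DESeq2, 185 by limma-voom, 424 by DESeq2 with the replicate block, 102 without all libraries of replicate D, 9 with the title number as block, 23 with the replicate letter as block, and 10 to 21 when 1 library was left out. At 0.05 the count of 394 became 3088 by limma-voom, 2951 by DESeq2 with the replicate block, 2155 without all libraries of replicate D, 1647 with the replicate block by letter, 1179 by DESeq2, 180 with no filter and 172 to 857 when 1 library was left out, the highest without control KD replicate D at 0 day. The cause of these shifts was not tested. Among the paralogs, Dcun1d2 turned to −0.03 without that library (−0.03 to 0.09 with 1 library left out) and Cpne2 to 0.00 without all libraries of replicate D (−0.14 to −0.01 with 1 library left out). Asking for an A after the 7-base match, the usual 8-base site, left 2 members (Foxk2, Cpne3) with a siRNA 08 site. The replicate block by letter changed no call of a paralog by edgeR. It moved the log2 fold change of Cpne3 at 1 day from −0.67 to −0.64 and ended a call there that is not used here, since Cpne3 was chosen on its fall.

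The intervals of the paralogs do not settle small changes. They leave room for rises of up to 1.28-fold over both days and 1.497-fold at 1 day in Foxk1. For Dcun1d5 over both days they reach down to a log2 fold change of −0.36. The 1 day comparison has 2 control KD libraries, and where either was left out the remaining 1 was assumed to vary like the other groups. The counts are RNA estimates, which do not show protein.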
